A study of Mus musculus with 5 samples.

Results

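The 9 genes described here encode enzymes, and 1 helper protein, that turn arachidonic acid and related membrane lipids into prostaglandins, leukotrienes and other signals, or that break such signals down: Ptgs1, Ptgs2, Ptges, Hpgds, Alox5, Alox5ap, Ltc4s, Alox15 and Pla2g7. They were taken by name from a table of 21617 genes, and all 9 were found in it. The table holds 41191 mouse cells from 5 libraries made with a droplet kit that tags the 3' end of each captured transcript with a unique molecular identifier (UMI). In 4 libraries the cells came from foreign body granulomas, nodules of macrophages and connective tissue around a material the body cannot remove, here a sponge left for 2 weeks (12347 cells) or 4 weeks (7701), or silk left for 2 weeks (10231) or 4 weeks (1873). The library labelled control (9039 cells) held macrophages elicited with thioglycollate, a broth known to recruit macrophages to the site where it is injected, so it differs from the granulomas in site and stimulus as well as in the absence of an implant. Of strain, age, sex and pooling of animals, the sources used here say nothing.

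Prostaglandins and leukotrienes are short-lived lipid signals made from arachidonic acid that phospholipases release from membranes. Cyclooxygenases (Ptgs1, expressed at rest in many tissues, and Ptgs2, induced by inflammatory stimuli) make the prostaglandin precursor, which terminal synthases such as Ptges and Hpgds turn into prostaglandin E or D. On the other branch, lipoxygenase Alox5, with the membrane protein Alox5ap that presents arachidonic acid to it, makes the leukotriene precursor, and Ltc4s joins glutathione to it to give the cysteinyl leukotrienes known from mast cells, eosinophils and macrophages. Foreign body reactions are known for a lasting presence of macrophages and fibroblasts, cells that can run different steps of these branches.

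On the mouse assembly GRCm38 (GENCODE M21 annotation) the genes lie on 6 chromosomes. Ptgs2 spans chromosome 1 from 150100031 to 150108227 on the plus strand, Ptgs1 spans chromosome 2 from 36230426 to 36252272 on the plus strand, and Ptges spans chromosome 2 from 30889471 to 30929863 on the minus strand. Alox5ap spans chromosome 5 from 149264767 to 149288153 on the plus strand. Both Hpgds (65117293 to 65144908) and Alox5 (116410077 to 116461178) lie on the minus strand of chromosome 6. Ltc4s spans 50236461 to 50238616 and Alox15 spans 70344152 to 70352031, both on the minus strand of chromosome 11, and Pla2g7 spans chromosome 17 from 43568098 to 43612201 on the plus strand. In 3 cases the count table also holds an antisense gene that overlaps a listed one: Gm26542 opposite Ltc4s had 443 UMIs in all cells, 1700071M16Rik opposite Pla2g7 had 81 and Gm19719 opposite Alox5ap had 57. The sources used here do not say whether the counting used strand, and Ltc4s, Pla2g7 and Alox5ap had 58272, 82366 and 151205 UMIs.

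The promoters of Ptgs2 and Ltc4s are shown because these genes were called in opposite directions in the comparison of granuloma with control macrophages. Each sequence is RefSeq's on GRCm38.p6, read 5′ to 3′ on the gene's own strand, with 250 bases before the annotated start and 30 after it. Capitals mark an E-box (CACGTG) together with the cAMP response half-site that overlaps it (TGACG, here as its reverse complement CGTCA). The pair is a composite element known in the mouse Ptgs2 promoter.
Ptgs2 chr1:150099781-150100060: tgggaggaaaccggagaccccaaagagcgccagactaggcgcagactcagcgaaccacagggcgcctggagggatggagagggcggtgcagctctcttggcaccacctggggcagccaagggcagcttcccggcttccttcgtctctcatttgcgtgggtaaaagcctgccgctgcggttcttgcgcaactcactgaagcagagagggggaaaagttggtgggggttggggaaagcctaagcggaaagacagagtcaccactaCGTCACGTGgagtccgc
Ltc4s chr11:50238503-50238782: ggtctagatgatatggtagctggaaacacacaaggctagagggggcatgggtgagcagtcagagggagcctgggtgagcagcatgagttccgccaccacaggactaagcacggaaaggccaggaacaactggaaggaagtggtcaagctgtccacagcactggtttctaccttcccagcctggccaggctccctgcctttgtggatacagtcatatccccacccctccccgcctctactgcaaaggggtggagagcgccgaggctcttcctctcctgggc
Counted from the annotated start of Ptgs2 as base 1, the half-site began at base 14 and the E-box at base 17. Promoters were found for 7 of the 9 genes (Alox5ap and Alox15 were not matched) and searched over 300 bases for 5 short motifs on both strands, except the TATA box (TATAAA), which was sought on the gene's strand. Of 27025 mouse promoters, 7.24% held the E-box, 21.0% the half-site, 35.9% a GC box (GGGCGG), 37.9% a CCAAT box (CCAAT) and 8.88% the TATA box. Ptgs2 also held a GC box, Ptges held 2, and Alox5 and Pla2g7 held 1 each, whereas Ltc4s, Ptgs1 and Hpgds held none of the 5 motifs. A match is a description of letters and not evidence of binding.

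Every group had 1 library, so no test across libraries was possible, and all intervals cover counting error only. UMI totals per library ran from 11207419 in silk at 4 weeks to 96066597 in sponge at 2 weeks, and the median cell held 3818 to 5206 UMIs in the granulomas and 7109 in the control. Across libraries, 153 barcode sequences occurred more than once (306 cells). Levels are a gene's UMIs per 1000000 UMIs (CPM), with UMIs summed over the named cells. The authors' classes were used: monocytes, macrophages and dendritic cells without subcluster C9 (written Mo-Mac), fibroblasts, neutrophils, endothelial cells and NK/T cells, and their subclusters are called by the deposited names (C for this myeloid class, F for fibroblasts, N for neutrophils). From the fibroblasts 490 cells that the authors named low quality and 37 of subcluster KC were left out, and from the neutrophils 17 of subcluster BP, 544 cells in all. All 9 macrophage markers were detected in Mo-Mac cells of each library, with summed levels of 16379 to 21267 CPM in the granulomas and 25749.5 CPM in the control. No Mo-Mac subcluster had 50 cells both in the control and in a granuloma: C1 (99.0% control cells), C2 (99.4%) and C10 (98.0%) made up the control, so that subcluster and library cannot be told apart in that comparison. RNA from other cells was present too: in control B cells macrophage markers stood at 18.5% to 22.4% of their Mo-Mac level, and in granuloma NK/T cells their median stood at 7.87% to 16.0%.

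Read across the 22 deposited subclusters and undivided classes with at least 50 cells, each gene had its own set of cells. The low quality cells left out of the comparisons are among these groups. With libraries summed, Ptgs2 was highest in neutrophil subclusters N1 (2084 CPM) and N2 (1684 CPM) and in myeloid subcluster C4 (1073 CPM), though in sponge at 2 weeks N2 (1890 CPM) lay above N1 (1222 CPM). Ptges was highest in fibroblast subcluster F2 (83.9 CPM), followed by C4 (73.0 CPM) and F1 (64.9 CPM). Ltc4s was highest in C1 (867 CPM), Hpgds in C2 (157 CPM), C5 (102 CPM) and C1 (101 CPM), and Alox5 in N1 (60.0 CPM) and C5 (42.2 CPM). Alox5ap had 364 to 1064 CPM in each of the myeloid and neutrophil subclusters, and Pla2g7 was highest in C4 (756 CPM) and C7 (702 CPM). Ptgs1 was highest in C10 (56.3 CPM), endothelial cells (53.1 CPM) and C1 (50.2 CPM). Neutrophil subcluster BP (17 cells) and fibroblast subcluster KC (37 cells) were too small for this reading.

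**Figure D1:**
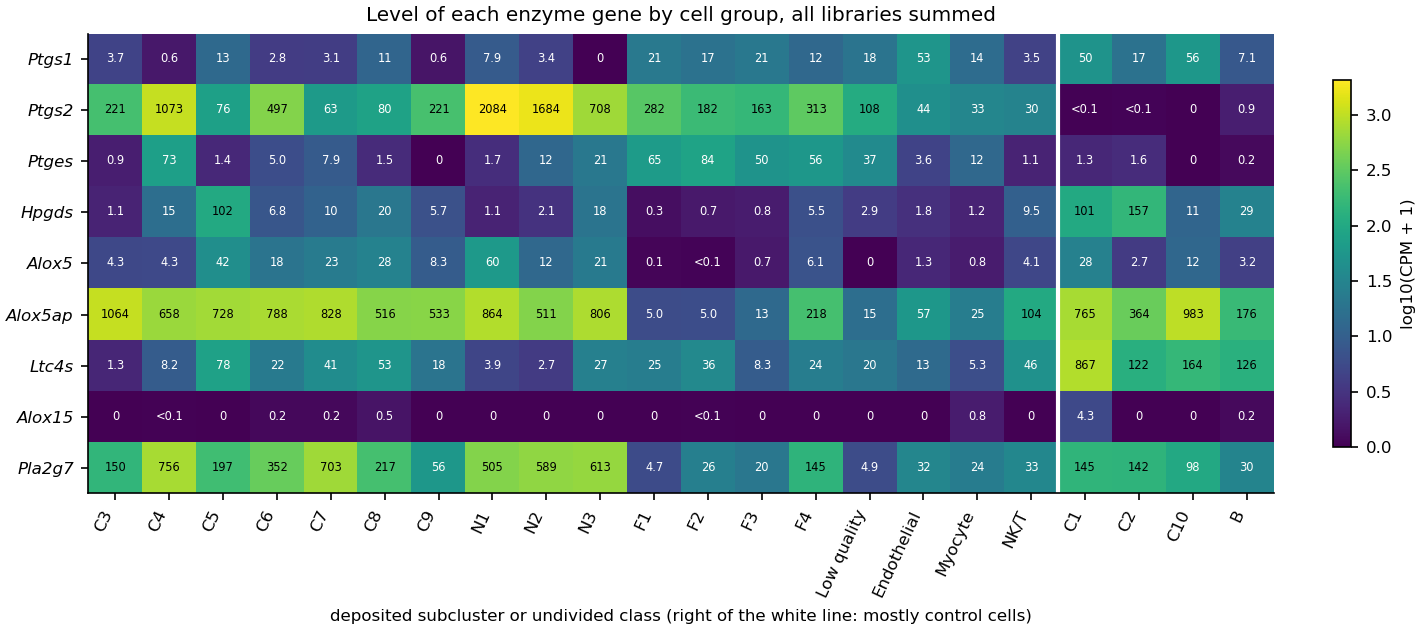
Rows are the 9 genes and columns the deposited subclusters and undivided classes with at least 50 cells, the low quality cells included. Colour is log10(CPM + 1) of UMIs summed over the libraries, and the printed numbers are CPM. Ptgs2 stands out in N1 (2084 CPM), N2 and C4, Ltc4s in C1 (867 CPM), and Alox15 reaches at most 4.32 CPM, in C1.

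In granuloma Mo-Mac cells against control Mo-Mac cells, Ptgs2 and Pla2g7 were at least 2-fold higher in all 4 contrasts and Ltc4s and Hpgds at least 2-fold lower in all 4. A call here needs a 2-fold difference the same way in every contrast on log2((CPM + 10)/(CPM + 10)), and the library with the higher level must hold 100 UMIs and 50 CPM or more. Of 9 genes, 5 (these 4 and Alox5ap) met that minimum. The 2 of 5 called higher stand beside 6.3% of the 3157 genes that met the minimum (199 genes), and the 2 of 5 called lower beside 2.79% (88 genes). The 4 contrasts share the control library. The plot of the 9 genes in Mo-Mac cells gives each library's level.

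**Figure D2:**
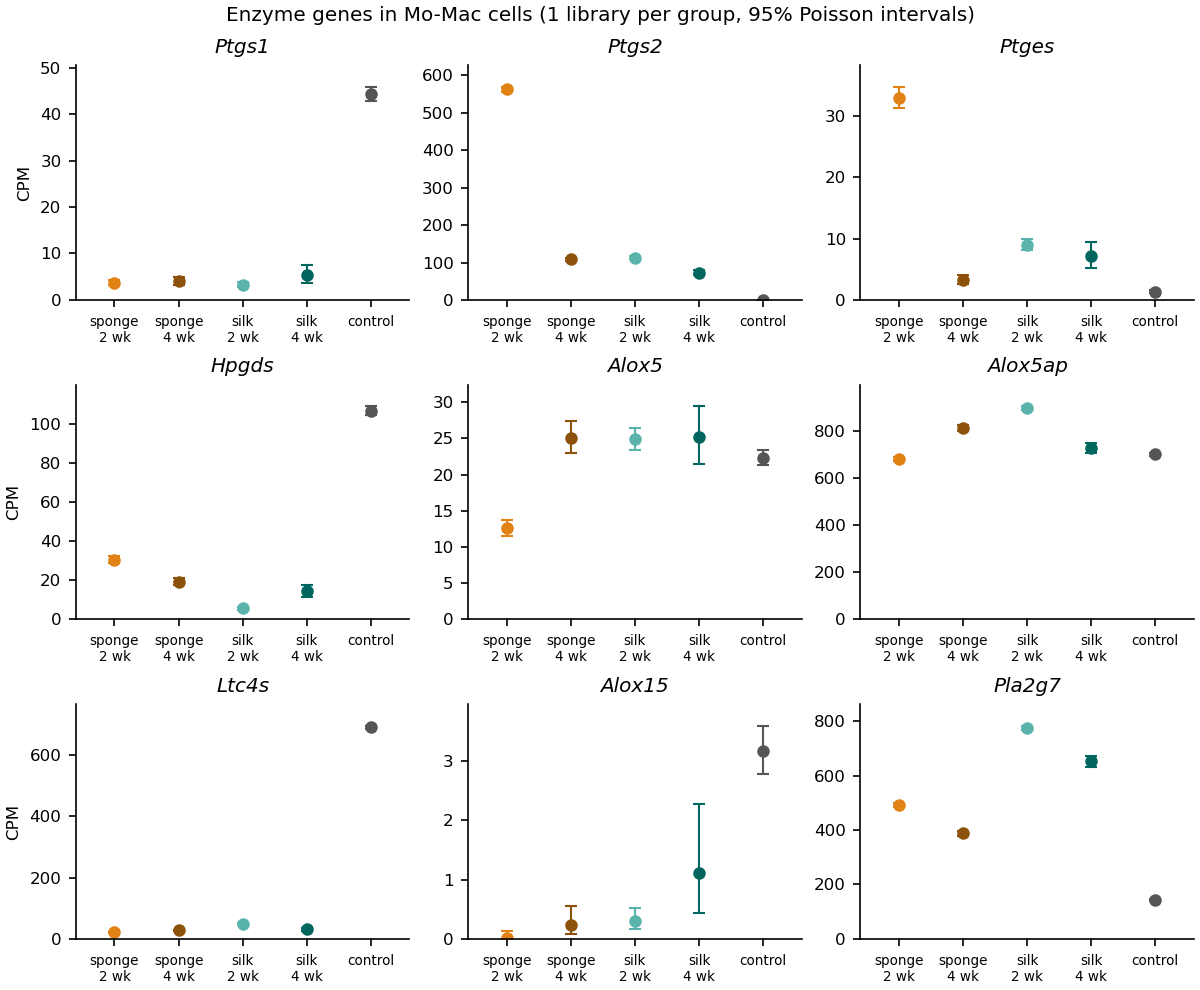
Each panel shows 1 gene in Mo-Mac cells. Points are CPM in the 4 granuloma libraries and, at the right, the control library, bars are exact Poisson 95% intervals of the count, and each panel has its own axis from 0. Ltc4s, Ptgs1 and Hpgds are highest in the control (691, 44.4 and 107 CPM), Ptgs2 and Pla2g7 are higher in each granuloma, and Alox5ap lies between 680 and 897 CPM throughout.

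Ptgs2, the inducible cyclooxygenase, was nearly absent from the control library. In Mo-Mac cells it had 562 CPM in sponge at 2 weeks (23730 UMIs), 109 CPM in sponge at 4 weeks (2261), 113 CPM in silk at 2 weeks (4835) and 72.4 CPM in silk at 4 weeks (459), against 0.0538 CPM in the control (4 UMIs). The log2 ratios to the control were 13.18 (95% interval 12.00 to 15.23), 10.81 (9.62 to 12.86), 10.87 (9.68 to 12.92) and 10.23 (9.03 to 12.28) for sponge at 2 and 4 weeks and silk at 2 and 4 weeks. A Ptgs2 UMI was seen in 40.5% of Mo-Mac cells of sponge at 2 weeks, 17.4% of sponge at 4 weeks, 18.1% of silk at 2 weeks and 14.6% of silk at 4 weeks, against 4 of 7783 control cells (0.0514%). With each cell thinned to 1000 UMIs the shares were 25.2%, 8.86%, 8.45% and 7.39% in the same 4 granulomas, against 0 of 7438 control cells, for which the limit is 0.0403%. The granulomas do not overlap the control in any of these measures, and sponge at 2 weeks stands above the other 3.

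Genes known to be induced when tissue is dissociated into single cells moved with this difference. The summed level of the 12 dissociation stress genes, all detected in each library, was 6583 to 9043 CPM in granuloma Mo-Mac cells and 2608 CPM in control Mo-Mac cells. Within the granulomas that order did not hold: silk at 4 weeks had the highest stress level (9043 CPM) and the lowest Ptgs2 level (72.4 CPM). The part of dissociation in the Ptgs2 difference was not tested, and site, stimulus and library cannot be told apart from the granuloma.

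Most Ptgs2 of the Mo-Mac class in sponge at 2 weeks lay in subcluster C4. This subcluster had 2542 cells in sponge at 2 weeks (91.7% of all its cells), 139 in silk at 2 weeks, 71 in sponge at 4 weeks and 14 in silk at 4 weeks, and in sponge at 2 weeks it held 48.1% of all Ptgs2 UMIs of the library. Ptgs2 in C4 stood at 398 CPM in silk against 1122 CPM in sponge at 2 weeks (log2 ratio -1.49, 95% interval -1.67 to -1.33), and at 232 CPM in sponge at 4 weeks against 1122 CPM in sponge at 2 weeks (-2.26, -2.63 to -1.94). The UMIs were spread over many cells: 1687 of the 2542 carried at least 1, the most in a single cell was 112, and the top 5% of cells held 33.1% of them. In subcluster C6, present in every granuloma, Ptgs2 stood at 399 CPM in silk against 812 CPM in sponge at 2 weeks (-1.02, -1.11 to -0.94), and at 214 CPM in silk against 334 CPM in sponge at 4 weeks (-0.64, -0.91 to -0.38). In C7, the largest granuloma subcluster, the same log2 ratios were -0.19 and -0.26, with levels between 45.1 and 75.1 CPM. Levels in C3 ran from 137 to 275 CPM, with silk below sponge at each time. At 2 weeks, 2 small subclusters had higher values in silk, C8 with 139 CPM in silk against 84.4 CPM in sponge (0.72, 0.34 to 1.09) and C5 with 102 CPM in silk against 77.7 CPM in sponge (0.41, -0.16 to 0.89).

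Over the whole Mo-Mac class Ptgs2 was lower in silk than in sponge, with a log2 ratio at 2 weeks of -2.31 (-2.36 to -2.27) and at 4 weeks of -0.58 (-0.73 to -0.44). It was lower at 4 weeks than at 2 weeks by -2.37 (-2.44 to -2.31) in sponge and -0.64 (-0.79 to -0.51) in silk. With C4 left out, an alternative chosen after seeing the data, silk at 2 weeks had 108 CPM against 198 CPM in sponge (-0.87, -0.92 to -0.81), and sponge at 4 weeks had 107 CPM against 198 CPM at 2 weeks (-0.89, -0.96 to -0.82). The silk contrasts with sponge at 4 weeks (-0.64) and with silk at 2 weeks (-0.66) stayed close to their values with C4. Ptgs2 did not reach 2-fold in each contrast of either comparison and is not among the calls there.

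Neutrophils had the highest Ptgs2 level of the compared classes, at 1805 CPM in silk and 1411 CPM in sponge at 2 weeks and 2397 CPM in silk and 1956 CPM in sponge at 4 weeks, with a UMI in 63.0% to 68.1% of cells. Per granuloma library they were 3.68% to 8.46% of the cells and held 8.66% to 25.0% of the Ptgs2 UMIs. The log2 ratio of silk to sponge was 0.36 (0.28 to 0.43) at 2 weeks and 0.30 (0.06 to 0.52) at 4 weeks, and that of 4 weeks to 2 weeks was 0.47 (0.36 to 0.58) in sponge and 0.41 (0.19 to 0.62) in silk. Scaling by the median ratio of well measured genes shifts the silk to sponge ratios by -0.124 at 2 weeks and -0.145 at 4 weeks. The ratios of 4 weeks to 2 weeks shift by -0.26 in sponge and -0.281 in silk, so their size depends on the scaling. Subclusters differed in direction, and in their share of the class: N1 was 73.5% of neutrophils in silk and 34.9% in sponge at 2 weeks, and at 4 weeks 85.5% in silk and 69.4% in sponge. In N1, silk at 2 weeks had 2648 CPM against 1222 CPM in sponge (log2 ratio 1.12), whereas in N2 silk had 1060 CPM against 1890 CPM in sponge (-0.83, -1.03 to -0.65) and in N3 491 CPM against 814 CPM (-0.73, -0.98 to -0.48). The dissociation stress level of neutrophils ranked the 4 libraries as Ptgs2 did, at 15581 CPM in silk and 11805 CPM in sponge at 2 weeks, and 23570 CPM in silk and 20471 CPM in sponge at 4 weeks. Its part in the difference was not tested.

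Fibroblasts carried Ptgs2 in each granuloma, at 166 CPM in silk against 288 CPM in sponge at 2 weeks (log2 ratio -0.79, -0.86 to -0.72) and 180 CPM in silk against 207 CPM in sponge at 4 weeks (-0.20, -0.34 to -0.07). They held 20.7% of the library's Ptgs2 UMIs in silk and 26.4% in sponge at 2 weeks, and at 4 weeks 36.2% in silk and 56.5% in sponge. At 2 weeks the same direction held in all 4 fibroblast subclusters, from F4 (163 CPM in silk against 411 CPM in sponge, -1.33) to F3 (136 against 176 CPM, -0.37). At 4 weeks F1 (196 against 274 CPM, -0.48) and F2 (171 against 126 CPM, 0.45) ran in opposite directions. Endothelial Ptgs2 was 12.0 CPM in silk and 75.1 CPM in sponge at 2 weeks, and 0.905 CPM (1 UMI) in silk and 23.3 CPM in sponge at 4 weeks. In sponge at 2 weeks these UMIs lay in 87 of 810 endothelial cells with a median total of 12672 UMIs, against 6196 over all endothelial cells, and the summed fibroblast markers in the class ran in the same order over the libraries, at 388 CPM in silk and 2416 CPM in sponge at 2 weeks, and 65.2 CPM in silk and 810 CPM in sponge at 4 weeks. The part of fibroblast RNA or of mixed droplets in the endothelial values was not tested.

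**Figure D3:**
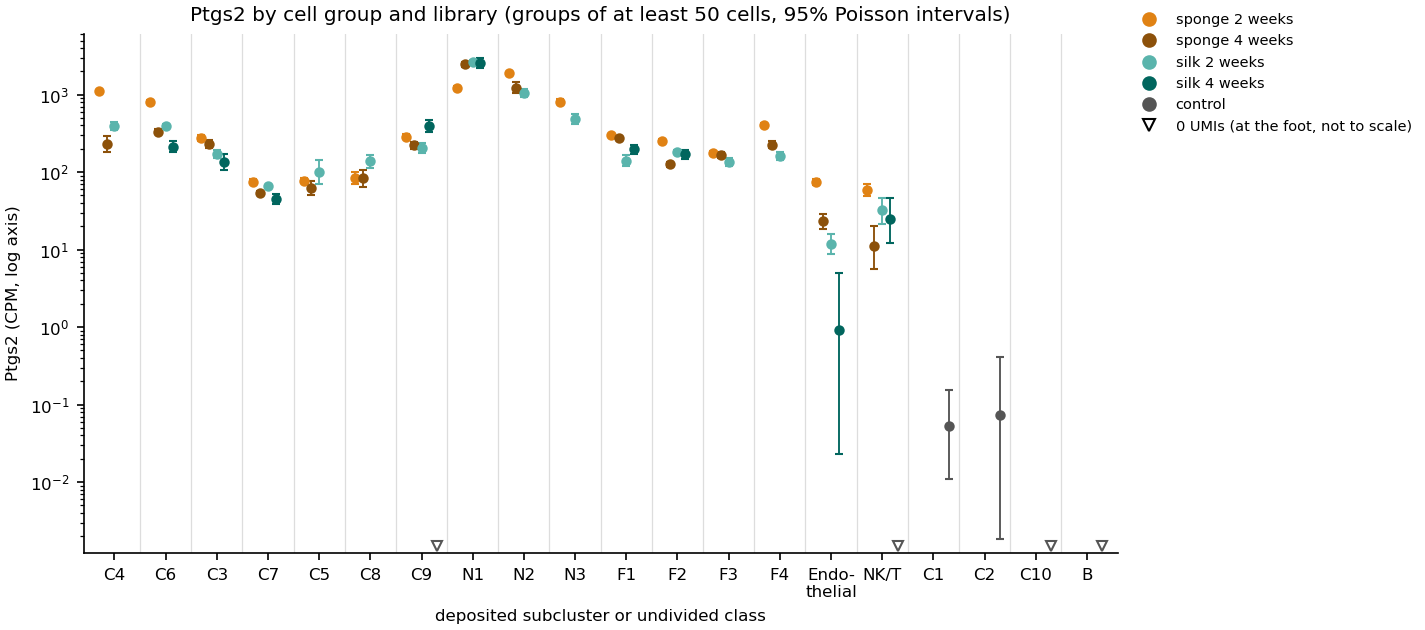
Ptgs2 in CPM on a log axis, by deposited subcluster or class (columns) and library (colours), for groups with at least 50 cells. Bars are exact Poisson 95% intervals and open triangles mark 0 UMIs. Granuloma myeloid cells, neutrophils and fibroblasts lie above 40 CPM, and the control groups C1, C2, C10 and B lie at or near 0.

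Ptgs1, the cyclooxygenase expressed at rest, had another distribution. In Mo-Mac cells it had 3.70 CPM in sponge at 2 weeks, 4.03 CPM in sponge at 4 weeks, 3.21 CPM in silk at 2 weeks and 5.36 CPM in silk at 4 weeks, against 44.4 CPM in the control, with log2 ratios of -3.58, -3.45, -3.78 and -3.03 to the control. It was below the 50 CPM that a call needs, so no call was possible. Among granuloma cells it was highest in endothelial cells, at 58.4 CPM in silk against 48.5 CPM in sponge at 2 weeks (0.27, 0.03 to 0.51) and 63.4 CPM in silk against 53.8 CPM in sponge at 4 weeks (0.24, -0.18 to 0.64). Endothelial Ptgs1 stood at 1310% of the Mo-Mac level in sponge at 2 weeks, where the 9 macrophage markers had a median of 6.6%. Fibroblasts had 26.7 CPM in silk against 19.9 CPM in sponge at 2 weeks and 10.2 CPM in silk against 13.9 CPM in sponge at 4 weeks.

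Ptges, which makes prostaglandin E from the cyclooxygenase product, was chiefly a fibroblast gene in the granulomas. Fibroblasts had 57.1 CPM in silk and 62.7 CPM in sponge at 2 weeks, and 89.9 CPM in silk and 79.2 CPM in sponge at 4 weeks, with a UMI in 46.0% to 54.7% of cells. These shares depend on depth, as the median fibroblast held 13761 UMIs and the median Mo-Mac cell 4970.5, libraries summed. With cells thinned to 1000 UMIs the summed share fell from 52.1% to 6.80% in fibroblasts, and from 3.10% to 0.93% in Mo-Mac cells. Fibroblasts held 63.9% of the Ptges UMIs in silk and 59.1% in sponge at 2 weeks, and at 4 weeks 82.1% in silk and 95.1% in sponge. The log2 ratio of 4 weeks to 2 weeks was 0.34 (0.24 to 0.43) in sponge and 0.66 (0.44 to 0.87) in silk. In F1 it was 0.26 (0.13 to 0.39) in sponge and 0.81 (0.28 to 1.38) in silk, and in F2 0.23 (0.07 to 0.40) in sponge and 0.71 (0.43 to 0.98) in silk. The make-up of silk fibroblasts differed between the times, with F1 at 59.7% of them at 4 weeks against 13.2% at 2 weeks and F2 at 27.5% against 57.3%. Fibroblast Ptgs2 did not move with Ptges, with corresponding ratios of -0.48 (-0.53 to -0.43) and 0.11 (-0.04 to 0.25). Mo-Mac cells had 1390 Ptges UMIs in sponge at 2 weeks, 68 in sponge at 4 weeks, 384 in silk at 2 weeks and 45 in silk at 4 weeks, against 98 in the control, and log2 ratios of their CPM to the control of 4.64, 1.31, 2.77 and 2.44 in that order. In sponge at 2 weeks 1266 of the 1390 Mo-Mac UMIs were in C4 (76.0 CPM), where 329 of 2542 cells carried 1 or more. With C4 left out the class had 8.46 CPM in silk against 4.85 CPM in sponge at 2 weeks, so that the log2 ratio of silk to sponge turned from -1.87 (-2.04 to -1.71) to 0.80 (0.50 to 1.11). Among C4 cells of sponge at 2 weeks thinned to 1000 UMIs, Ptges was seen in 7.09% of the 1115 cells with Ptgs2 and in 3.44% of the 1395 without it, and in F1 in 7.66% of 261 cells and 5.83% of 1097. These cells share 1 library, and no test was made.

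Hpgds, which makes prostaglandin D, was lower in the granulomas. Mo-Mac cells had 30.6 CPM in sponge at 2 weeks, 19.3 CPM in sponge at 4 weeks, 5.69 CPM in silk at 2 weeks and 14.4 CPM in silk at 4 weeks, against 107 CPM in the control. The log2 ratios to the control were -1.80, -2.46, -4.22 and -2.88, and a UMI was seen in 2.49% to 11.1% of granuloma cells and in 44.6% of control cells. With 50 CPM added in place of 10, Hpgds was no longer 2-fold lower in each contrast. Within the granulomas it was concentrated in C5, at 101 CPM in sponge at 2 weeks, 112 CPM in sponge at 4 weeks and 80.7 CPM in silk at 2 weeks, levels near those of C1 (102 CPM) and below that of C2 (158 CPM) in the control. In C7 it was 5.42 CPM in silk against 20.5 CPM in sponge at 2 weeks (-1.92, -2.21 to -1.63), and 14.2 CPM in silk against 12.6 CPM in sponge at 4 weeks (0.18, -0.26 to 0.59). C5 had 104 cells in silk and 1357 cells in sponge at 2 weeks, and at 4 weeks 35 in silk and 438 in sponge.

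Alox5ap, which presents arachidonic acid to Alox5, differed by less than 2-fold between granuloma and control Mo-Mac cells. It had 680 CPM in sponge at 2 weeks, 812 CPM in sponge at 4 weeks, 897 CPM in silk at 2 weeks and 727 CPM in silk at 4 weeks, against 702 CPM in the control, with log2 ratios of -0.04 to 0.35. Thinned shares of cells with a UMI were 47.6% to 56.6% in the granulomas and 51.3% in the control. Subcluster C3 had 1036 to 1187 CPM and neutrophils 677 to 939 CPM, whereas fibroblasts had 7.56 to 43.1 CPM, where summed macrophage markers ran from 209 to 940 CPM with the same libraries lowest and highest. Endothelial Alox5ap, at 79.2 CPM in silk and 56.7 CPM in sponge at 2 weeks and 3.62 CPM in silk and 47.8 CPM in sponge at 4 weeks, ranked the libraries as the macrophage markers did there (1489 CPM in silk and 1044 CPM in sponge at 2 weeks, 104 CPM in silk and 913 CPM in sponge at 4 weeks). In NK/T cells it was 62.9 to 117 CPM in the granulomas and 154 CPM in the control. The part of macrophage RNA in the fibroblast, endothelial and NK/T values was not tested.

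Alox5, the lipoxygenase itself, had 12.6 CPM in Mo-Mac cells of sponge at 2 weeks, 25.1 CPM in sponge at 4 weeks, 24.9 CPM in silk at 2 weeks and 25.2 CPM in silk at 4 weeks, against 22.3 CPM in the control. Sponge at 2 weeks was lowest and the other 4 libraries lay within 3 CPM of each other. With C4 left out, sponge at 2 weeks had 17.9 CPM, against 25.3 to 25.5 CPM in the other granulomas and 22.3 CPM in the control. C4 had 3.22 to 4.39 CPM, C7 9.90 CPM in sponge at 2 weeks and 23.3 to 26.5 CPM in the other granulomas, and C5 37.7 to 60.4 CPM. Silk against sponge at 2 weeks gave a log2 ratio of 1.40 (1.12 to 1.71) in C7 and 1.06 (0.53 to 1.64) in C6. In neutrophils Alox5 was 37.8 CPM in silk and 29.0 CPM in sponge at 2 weeks, and 72.3 CPM (6 UMIs) in silk and 42.1 CPM in sponge at 4 weeks, and N1 held more of it (52.0 to 89.9 CPM) than N2 (4.21 to 23.4 CPM). Fibroblasts and endothelial cells had at most 2.20 CPM.

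Ltc4s, the step from the leukotriene precursor to cysteinyl leukotrienes, was called lower in granuloma Mo-Mac cells. It had 22.3 CPM in sponge at 2 weeks (941 UMIs), 28.2 CPM in sponge at 4 weeks (588), 49.5 CPM in silk at 2 weeks (2115) and 31.7 CPM in silk at 4 weeks (201), against 691 CPM in the control (51343 UMIs). Log2 ratios to the control were -4.95 (-5.05 to -4.86), -4.61 (-4.73 to -4.50), -3.80 (-3.86 to -3.74) and -4.44 (-4.65 to -4.25). Thinned shares of cells with a UMI were 2.02% to 3.29% in the granulomas and 44.4% in the control. The antisense gene Gm26542 went the same way, at 0 to 0.492 CPM in the granulomas and 4.61 CPM in the control. Within the control, C1 had 869 CPM, with a UMI in 5332 of 6476 cells, C10 166 CPM and C2 122 CPM. Granuloma subclusters ran from 0 to 3.90 CPM in C3 to 38.8 to 113 CPM in C5, and in C7 silk had 56.4 CPM against 16.9 CPM in sponge at 2 weeks (1.73, 1.52 to 1.96) and 34.1 CPM against 21.9 CPM at 4 weeks (0.64, 0.35 to 0.92).

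Fibroblasts also contained Ltc4s, with the highest level in silk at 4 weeks. They had 93.7 CPM in silk against 38.1 CPM in sponge at 4 weeks (log2 ratio 1.30, 1.09 to 1.50), and 16.6 CPM in silk against 15.9 CPM in sponge at 2 weeks (0.07, -0.17 to 0.30). At 4 weeks against 2 weeks the log2 ratio was 1.26 (1.11 to 1.42) in sponge and 2.49 (2.22 to 2.77) in silk. In silk at 4 weeks the signal lay in F2, where 47 of 58 cells carried a UMI and the level was 160 CPM (220 UMIs, at most 25 in a cell), against 44.4 CPM in F2 of sponge at 4 weeks (102 of 374 cells) and 19.5 CPM in F2 of silk at 2 weeks (61 of 457 cells). F1 of the same library had 17.6 CPM against 40.3 CPM in sponge at 4 weeks (-1.16, -1.90 to -0.56). Macrophage markers in fibroblasts did not follow this order: their sum was lowest in silk at 4 weeks (209 CPM) and 532 to 940 CPM in the other granulomas. The part of macrophage RNA in the fibroblast Ltc4s values was not tested. In sponge at 2 weeks the fibroblast signal was held by few cells, the top 5% carrying 83.9% of the UMIs, against 51.6% in silk at 4 weeks. The F2 value rests on 58 cells of 1 library, and no call was possible in either fibroblast comparison, because the higher library of 1 contrast in each was below 50 CPM (silk at 2 weeks for silk against sponge, with 16.6 CPM, and sponge at 4 weeks for 4 weeks against 2 weeks, with 38.1 CPM).

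**Figure D4:**
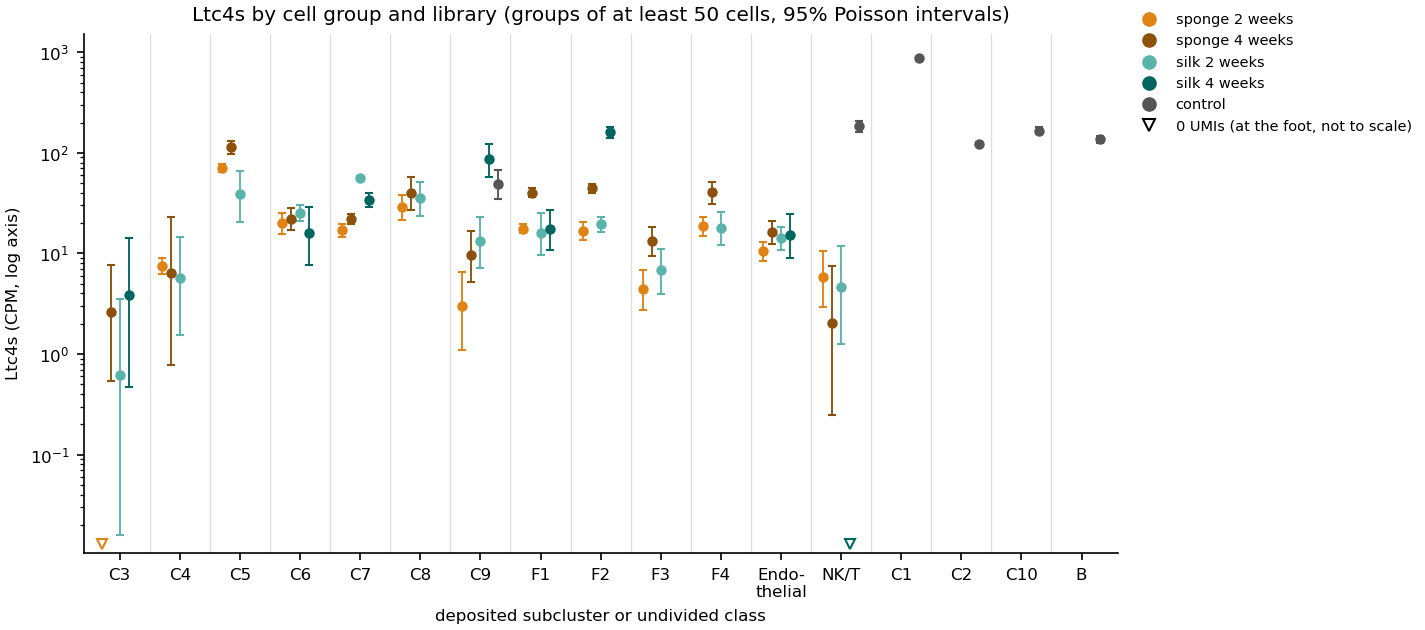
Ltc4s in CPM on a log axis, by deposited subcluster or class (columns) and library (colours), for groups with at least 50 cells. Bars are exact Poisson 95% intervals and open triangles mark 0 UMIs. C1 of the control lies at 869 CPM, F2 of silk at 4 weeks (160 CPM) lies above F2 of the other libraries, and control NK/T (184 CPM) and B cells (136 CPM) lie well above granuloma NK/T cells.

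Alox15, a lipoxygenase known from resident peritoneal macrophages, was almost undetected outside the control. Mo-Mac cells had 1 UMI in sponge at 2 weeks, 5 in sponge at 4 weeks, 13 in silk at 2 weeks and 7 in silk at 4 weeks, against 235 UMIs (3.16 CPM) in the control, where they lay in 74 of 7783 cells with at most 20 in a cell. Control subcluster C1 had 4.17 CPM, and 9 of the 13 UMIs of silk at 2 weeks lay in 2 of the 26 cells assigned to C1 there. Neutrophils without BP, endothelial cells, C9 and NK/T cells had 0 UMIs, and the 17 cells of BP held 1 UMI in silk at 2 weeks and 1 in silk at 4 weeks. The deposited fibroblasts of silk at 2 weeks held 8 UMIs, with 0 in the fibroblasts compared, so that these lay in cells left out. In sponge at 2 weeks 4 UMIs lay in cells deposited as myocytes. The 544 cells left out held 10 UMIs in all (7.60 CPM).

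Pla2g7, a secreted phospholipase that hydrolyses platelet-activating factor and oxidized phospholipids, was higher in granuloma Mo-Mac cells. It had 492 CPM in sponge at 2 weeks, 388 CPM in sponge at 4 weeks, 775 CPM in silk at 2 weeks and 652 CPM in silk at 4 weeks, against 142 CPM in the control. Log2 ratios to the control were 1.79, 1.45, 2.45 and 2.20, and thinned shares of cells with a UMI were 26.1% to 45.2% in the granulomas and 12.6% in the control. Silk lay above sponge with a log2 ratio at 2 weeks of 0.66 (0.63 to 0.68) and at 4 weeks of 0.75 (0.69 to 0.80). At 2 weeks this held in C8 (469 CPM in silk against 125 CPM in sponge, 1.91), C6 (507 against 206 CPM, 1.30), C5 (445 against 190 CPM, 1.23), C7 (848 against 502 CPM, 0.76) and C4 (974 against 758 CPM, 0.36), but not in C3 (137 against 179 CPM, -0.38). At 4 weeks C7 (771 against 477 CPM, 0.69), C6 (430 against 271 CPM, 0.67) and C3 (158 against 114 CPM, 0.48) had the same direction. With C4 left out the ratio of sponge at 4 weeks to sponge at 2 weeks turned from -0.34 (-0.38 to -0.31) to 0.29 (0.24 to 0.33). Without C4, silk at 2 weeks had 772 CPM against 319 CPM in sponge (1.27, 1.24 to 1.31), and the ratio at 4 weeks stayed at 0.75. Neutrophils had 576 CPM in silk and 582 CPM in sponge at 2 weeks, and 349 CPM in silk and 432 CPM in sponge at 4 weeks, where their macrophage marker sums were 4666 CPM in silk and 5207 CPM in sponge at 2 weeks and 1626 CPM in silk and 2727 CPM in sponge at 4 weeks, and the part of macrophage RNA was not tested.

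None of the listed genes was called in the remaining comparisons of Mo-Mac cells. For silk against sponge, 0 of the 3 genes that met the minimum (Ptgs2, Alox5ap and Pla2g7) were called, beside 0.0684% of all genes called higher and 0.308% called lower. For 4 weeks against 2 weeks, 0 of the same 3 were called, beside 0.0675% higher and 0.506% lower. In fibroblasts, where Ptgs2 and Ptges met the minimum, 0 of 2 were called for silk against sponge, beside 0.133% higher and 0.0994% lower, and 0 of 2 for 4 weeks against 2 weeks, beside 0.415% higher and 0.575% lower. In neutrophils, where Ptgs2 and Pla2g7 met it, 0 of 2 were called for silk against sponge, beside 0.0% higher and 0.744% lower, and 0 of 2 for 4 weeks against 2 weeks, beside 0.38% higher and 8.24% lower. In endothelial cells no listed gene met the minimum in both contrasts of silk against sponge, where 0.177% of all genes were called higher and 0.461% lower, and Alox5ap alone met it for 4 weeks against 2 weeks and was not called, beside 0.682% in each direction. Beside background shares of this size, the counts of 0 are not a result about these genes.

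In NK/T cells of the granulomas against the control, Ltc4s was called lower, 1 of the 2 listed genes that met the minimum, beside 2.74% of all genes, and 0 of 2 were called higher, beside 4.45%. It had 11, 2, 4 and 0 UMIs in sponge at 2 and 4 weeks and silk at 2 and 4 weeks, against 232 UMIs (184 CPM) in the control. The control NK/T level was 26.6% of that of control Mo-Mac cells, while the macrophage markers stood at 12.0% to 25.4% there, and their sum was 1084 to 1880 CPM in granuloma and 5258 CPM in control NK/T cells. The call was lost without the 5% of cells of highest UMI total and with cells thinned. Ltc4s in control B cells, 136 CPM, was 19.7% of the Mo-Mac level, within the range of the macrophage markers (18.5% to 22.4%). Whether B cells express it was not tested. Ptgs2 had 59.2, 11.3, 32.2 and 25.2 CPM in granuloma NK/T cells of sponge at 2 and 4 weeks and silk at 2 and 4 weeks, against 0 UMIs in the control, which allows up to 2.37 CPM. These levels were 10.5%, 10.4%, 28.5% and 34.8% of the Mo-Mac level of the same library, where the macrophage markers stood at 4.65% to 9.92%, 5.81% to 14.4%, 7.92% to 27.9% and 0.0% to 17.3%. The part of free RNA in the NK/T values was not tested.

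Subcluster C9 was kept apart because it holds cells with markers of different types. Of its 918 cells, 41 carried at least 3 of 12 mast cell markers and more mast than dendritic cell markers (35 of them in the control, 5 in sponge at 2 weeks and 1 in sponge at 4 weeks), 646 carried dendritic cell markers in the same way, and 231 fell in neither set. In the mast-marker cells, which had a median of 1533 UMIs, Pla2g7 had 780 CPM (95% interval 591 to 1010, 57 UMIs), Alox5 287 CPM (178 to 439, 21 UMIs), Hpgds 260 CPM (157 to 406, 19 UMIs), Alox5ap 192 CPM (105 to 321, 14 UMIs) and Ltc4s 41.0 CPM (8.46 to 120, 3 UMIs). Alox5 and Hpgds were above their level in each subcluster of the series with at least 50 cells. For Hpgds, however, the lower end of the interval lies at the level of C2 (157 CPM, libraries summed), so that it is not clearly above C2. Ptgs1, Ptgs2, Ptges and Alox15 had 0 of 73091 UMIs in these cells, which allows up to 41.0 CPM each. The control library holds most of these cells, so no comparison with the granulomas was made.

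The dendritic-marker cells of C9 had Ptgs2 at 301 CPM in sponge at 2 weeks, 233 CPM in sponge at 4 weeks, 229 CPM in silk at 2 weeks and 430 CPM in silk at 4 weeks, against 0 of 683078 UMIs in the control. With 3 counts as the control's limit, that is at least 68.4-fold, 53.0-fold, 52.0-fold and 98.0-fold higher. Dissociation stress genes summed to 5892 to 9952 CPM in granuloma C9 and 2426 CPM in control C9, and their part was not tested. Alox5ap had 440 to 504 CPM in the granulomas and 804 CPM in the control, and Pla2g7 9.63 to 65.8 CPM in the granulomas and 5.86 CPM (4 UMIs) in the control. Ltc4s was 93.1 CPM in silk at 4 weeks, where 29 UMIs lay in 8 of 51 cells, 4.22 to 17.3 CPM in the other granulomas and 46.8 CPM in the control. Ptges had 0 UMIs in all 646 cells.

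**Figure D5:**
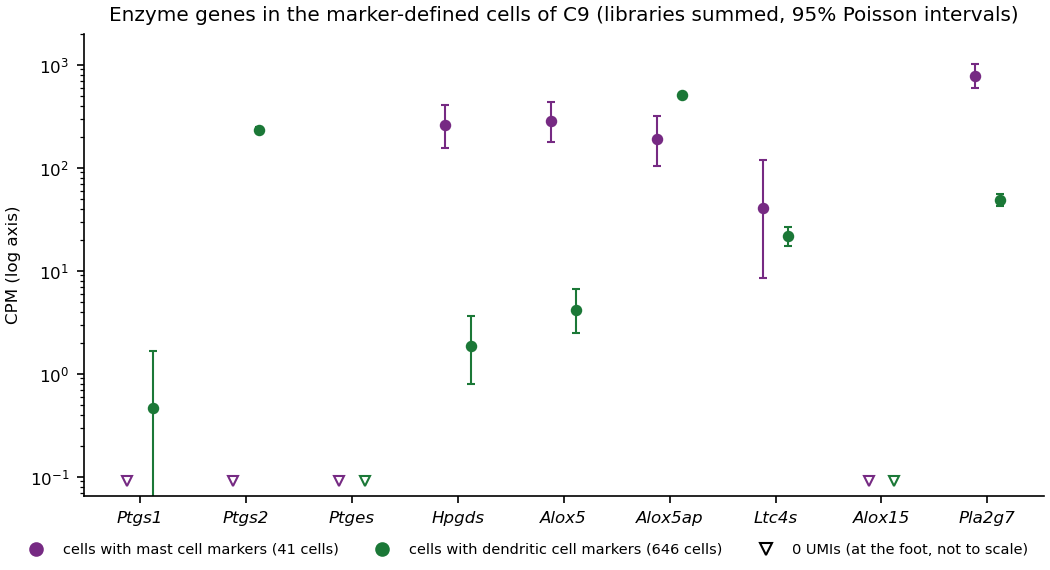
The 9 genes in C9 cells with mast cell markers (41 cells, purple) and with dendritic cell markers (646 cells, green), libraries summed, in CPM on a log axis. Bars are exact Poisson 95% intervals and open triangles mark 0 UMIs. Alox5 and Hpgds are higher in the mast-marker cells (287 and 260 CPM), and Ptgs2 has UMIs in the dendritic-marker cells and 0 in the mast-marker cells. Of the 41 mast-marker cells 35 are from the control, where the dendritic-marker cells also had 0 Ptgs2 UMIs.

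Cells that carried 1 of the genes did not always carry its partner more often. With C1 cells of the control thinned to 1000 UMIs, Ltc4s was seen in 57.7% of the 3273 cells with Alox5ap and in 44.8% of the 2874 without it, whereas Hpgds was seen in 6.71% of the 3176 cells with Ltc4s and in 11.0% of the 2971 without it. In C5 of sponge at 2 weeks Alox5 was seen in 5.04% of cells with Alox5ap and 2.83% of those without it. Pla2g7 was seen in 46.9% of C4 cells with Ptgs2 and 47.0% of those without it in the same library. These shares describe cells of 1 library each.

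Other genes followed the listed ones over the 22 cell groups, by the correlation of log2(CPM + 10) with libraries summed, a description over groups that share libraries. The low quality cells are among the 22 groups. Nearest to Alox5ap were Spi1 (Pearson r 0.984) and Pirb (0.975), and nearest to Pla2g7 were Bst1 (0.962), Slc11a1 (0.933) and Adam8 (0.931). Nearest to Hpgds were Arhgap19 (0.944), Fabp3 (0.933) and Syngr1 (0.919), to Ptgs2 Mir22hg (0.906), Sra1 (0.879) and Eid3 (0.875), to Ptges Tmem119 (0.895), Pgm1 (0.888) and Ak4 (0.874), and to Ltc4s Fcna (0.890), Orai3 (0.884) and Tsacc (0.883). For Ptgs1 they were Cgnl1 (0.857), Plxna4 (0.802) and Zfp358 (0.752), for Alox15 Vsig4 (0.855), Mlxipl (0.811) and Naip1 (0.801), and for Alox5 Atg3 (0.825), Cd300ld (0.825) and Slc35a5 (0.810).

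Further genes of these pathways mostly fell below the minimum in Mo-Mac cells. Against the control, 3 of 15 phospholipase genes in the table met it, 4 of 9 further prostanoid synthases, 2 of 13 leukotriene and lipoxygenase genes, 1 of 10 breakdown and transport genes, 3 of 7 platelet-activating factor genes and 1 of 16 receptors, and 2 of these were called, both higher, beside 6.3% of all genes called higher and 2.79% called lower. Abcc1, a transporter that exports the cysteinyl leukotriene made by Ltc4s, had 128 CPM in sponge at 2 weeks, 134 CPM in sponge at 4 weeks, 194 CPM in silk at 2 weeks and 134 CPM in silk at 4 weeks, against 21.7 CPM in the control (log2 ratios 2.56, 2.62, 3.16 and 2.63). Lpcat2, which makes platelet-activating factor, had 63.0, 55.9, 98.9 and 86.0 CPM in the same granulomas against 14.2 CPM in the control (2.15, 1.98, 2.80 and 2.60). Silk against sponge gave 0 calls in these lists, beside 0.0684% of all genes called higher and 0.308% lower. At 4 weeks against 2 weeks, Fpr2, a receptor for lipid and peptide signals, was called lower, beside 0.506% of all genes, with 12.7 CPM at 4 weeks against 91.1 CPM at 2 weeks in sponge (-2.84) and 25.1 CPM against 73.1 CPM in silk (-1.54). In the other classes none of the genes of these lists that met the minimum was called.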

How the data were processed

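Single-cell RNA-seq counts of 41191 cells in 5 libraries were used. Per the submitters' processing notes, Cell Ranger 3.0.0, Seurat 3.0 and mm10 were used, with no role given. The authors deposited raw UMI counts per gene and cell, and a cell table with class, subcluster and percent of mitochondrial reads. The sources used here give neither their cell filters nor the strand setting. No doublet caller was run, and leaving out the 5% of cells with most UMIs was an alternative.

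UMIs were summed per library and cell group and divided by the group's total (CPM), with exact Poisson 95% intervals. Shares of cells have exact Clopper-Pearson intervals, before and after thinning to 1000 UMIs per cell. Log2 ratios add 0.5 counts and carry conditional binomial intervals. Intervals and limits (3 counts for a count of 0) cover counting error only. With 1 library per group there is no replicate and no test. Classes were compared with at least 50 cells per library.

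The named genes are the 9 members, up to 4 genes per pathway list, comparison and direction that passed the 2-fold limit, and for each member the 3 genes of highest Pearson correlation among genes with at least 500 UMIs, leaving out predicted models and ribosomal and mitochondrial genes; 1 gene that this rule names is not reported here. Members and lists were chosen with earlier results of these data known. The calls were tested on simulated counts with known changes and Poisson error only. The simulation held no variation between animals or libraries beyond those changes, so it does not cover that error. Python 3.11.15, NumPy 2.4.6, SciPy 1.17.1, pandas 2.3.3 and matplotlib 3.10.9 were used.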

Additional observations from a re-analysis of the deposited data

How the results depend on the processing

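No paired analysis was possible because each group has 1 library. No called value changed sign under any setting tried. The count of listed genes called lower in granuloma against control Mo-Mac cells was 1 (Ltc4s) with 50 CPM added in place of 10. With no minimum level, Ptgs2 was called in 3 further comparisons, giving 1 lower gene in endothelial cells for silk against sponge, 1 lower gene there for 4 weeks against 2 weeks, and 1 higher gene in NK/T cells of granulomas against the control, beside 0.213%, 0.267% and 1.64% of all genes called under that setting. In NK/T cells the count called lower was 0 with cells thinned and 0 without the 5% of cells of most UMIs. In Mo-Mac cells against the control the count called lower was 3 with no minimum, Ptgs1 being added, beside 0.731% of all genes. The other counts kept their value. Leaving out C4 or the silk 4-week library, both chosen after seeing the data, changed no Mo-Mac call against the control. The median-ratio scaling moved the median of all genes by over 0.1 on the log2 scale in neutrophils (-0.124 to -0.281), in fibroblasts for silk against sponge at 2 weeks (-0.117) and in NK/T cells (-0.178 in sponge at 4 weeks, -0.205 in silk at 2 weeks and -0.212 in silk at 4 weeks against the control), so that ratios of this size depend on the scaling there. Few UMIs limit the silk 4-week values and, with cells thinned, the NK/T call. Why the NK/T call was lost without the 5% of cells of most UMIs was not tested.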

Other observations

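Some further genes of these pathways, chosen after their values were seen, were high in 1 class. Ptgis, the prostacyclin synthase, had 67.2 CPM in fibroblasts of silk at 2 weeks and 159 CPM in those of sponge at 2 weeks, of sponge at 4 weeks and of silk at 4 weeks. Slco2a1, a prostaglandin transporter, had 125 to 182 CPM in endothelial cells. Cyp4f18, which degrades leukotriene B in mouse neutrophils, had 318 to 614 CPM in neutrophils.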
